A study of Mus musculus with 6 samples.

Results

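Oxidative phosphorylation is carried out by 5 enzyme complexes of the inner mitochondrial membrane, and the genes described here encode their subunits. They are the protein-coding genes whose symbols begin with the names of those subunits, and 110 of the 46078 counted genes met that rule. RNA was measured by bulk RNA-Seq in 3 infarcts and 3 contralateral cortices from wild type C57BL/6J mice at 7 weeks after stroke, to ask how a chronic infarct differs from the equivalent region of the other hemisphere. Their age is recorded as 3 months, no drug is named, and the study used male mice. Stroke was induced by occluding the distal middle cerebral artery and then exposing the mice to hypoxia (the DH model), so the contralateral cortices came from animals that also underwent surgery and hypoxia. Infarcts were recognized by eye and cut out by hand, and the border of the dissection sets which cells each sample held.

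Complexes I to IV pass electrons from NADH and succinate to oxygen, and complexes I, III, and IV pump protons as they do so. Complex V, the ATP synthase, uses the proton gradient to make ATP. The subunits come from 2 genomes: most are encoded in the nucleus and imported, whereas a core set is encoded by mitochondrial DNA, which contributes to every complex except complex II. In the brain this pathway supplies most of the ATP that neurons spend on ion pumping and synaptic transmission, and several subunits exist in isoforms that differ between tissues or respond to low oxygen.

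Of the 110 genes, 84 are nuclear genes for subunits (38 of complex I, 4 of complex II, 8 of complex III, 18 of complex IV, and 16 of complex V) and 13 are mitochondrial-encoded subunits. Another 12 are assembly factors of complexes I and II, which share the first letters of the symbols, and the last is *Atp5s*, which is no subunit of the enzyme. *Ndufa4*, now placed with complex IV, and *Cox7a2l*, a factor that joins complexes into supercomplexes, are kept here with the complex that their symbols name. A filter on low counts left 102 genes for testing. The 8 genes that it removed are *Ndufa4l2*, *Cox6b2*, *Cox7a1*, *Cox7b2*, *Cox8b*, *Cox8c*, *mt-Nd4l*, and *mt-Atp8*.

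Libraries held 11943570 to 19933962 reads counted on genes. Levels are given as CPM, the read count of a gene relative to the size of its library, after TMM scaling, which sets libraries to a common size from genes of middling change, and replicates are the 3 libraries of a region. A gene was called in edgeR's quasi-likelihood test when its *p*, adjusted over all 15554 tested genes by Benjamini-Hochberg, was under 0.05. Between these tissues most genes passed: 65.0% were called, 30.8% as lower and 34.2% as higher in infarcts. A median tested gene differed by 0.94 on the log2 scale in either direction, whereas the corresponding median for nuclear subunits was 0.45. The records do not tie an infarct to the contralateral cortex of its own mouse, nor say that the libraries of a region came from separate animals.

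In bulk tissue fewer cells of a type and less RNA per cell cannot be told apart, and the cell makeup of the regions differed. All 10 neuronal markers were lower, with a median log2 fold change of -2.98 and summed levels of 689 to 1818 CPM in infarcts and 9768.5 to 10648 CPM in contralateral cortices. All 8 microglia and macrophage markers were higher, with summed levels of 6001 to 9699 CPM against 158 to 213 CPM, and so were all 5 fibroblast markers (4667 to 5786 CPM against 133 to 169 CPM). Oligodendrocyte markers were higher too, 6 of 6, as were 8 of 9 tested markers of pericytes and smooth muscle, cells in which *Cox4i2* and *Ndufa4l2* are known to be expressed. Astrocyte markers were mixed, with 3 of 6 higher and 2 lower, and 4 of 5 endothelial markers were higher (2 of 5 without contralateral cortex 1). The part of these differences in the values of the oxidative phosphorylation genes was not tested.

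Nuclear subunit transcripts were moderately lower in infarcts, by a median of 1.35-fold. Of 78 tested, 25 (32.1%) were called lower, close to the 30.8% of all tested genes, and 1, *Atp5g2*, was called higher, against 34.2% of all tested genes. The remaining 52 did not pass the test. Their log2 fold changes (infarct over contralateral) had a median of -0.43 and ranged from -1.60 to 0.66, with 65 of 78 below 0, whereas all tested genes had a median of 0.03 and quartiles of -0.82 and 1.09. Past a fold change of 2, 4 of 78 nuclear subunits were called lower and 0 higher, where 20.9% and 25.7% of all tested genes were. The 3 infarct values all lay below the 3 contralateral values for 32 of 78 nuclear subunits and all above for 2 of 78, against 34.7% and 37.6% of all tested genes. The count of 25 depended on single libraries. It was 11 without infarct 2, 15 without contralateral cortex 1, and 12 without contralateral cortex 3. Scaling by library totals, which moved the median of all genes up by 0.20, gave 12 lower and 4 higher.

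**Figure D1:**
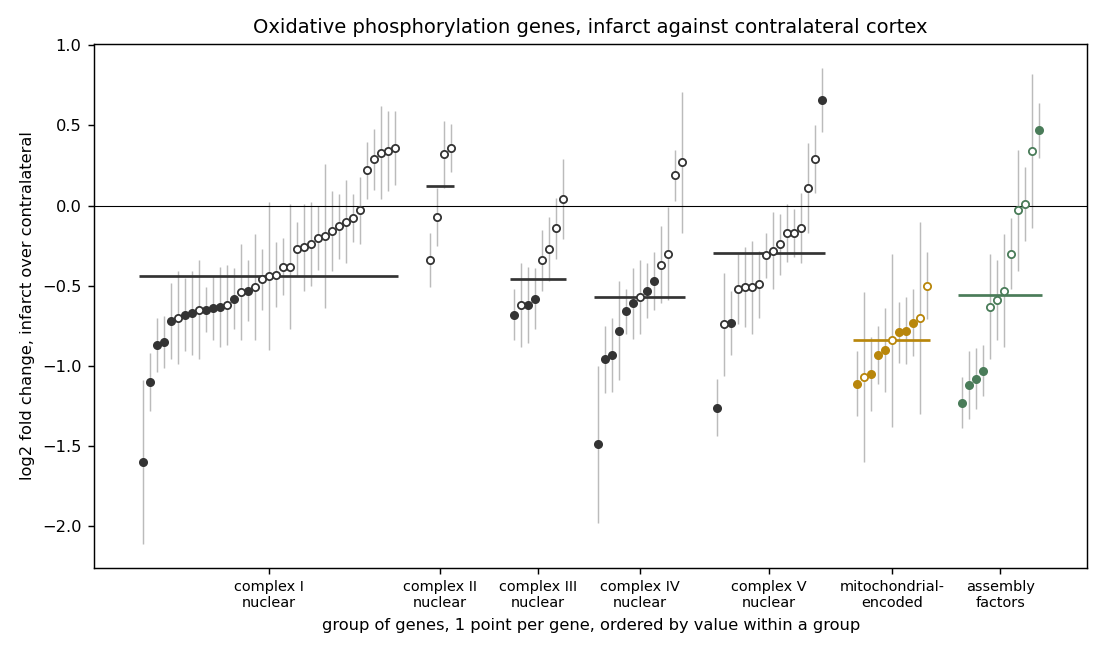
Each point is 1 tested gene, with its log2 fold change (infarct over contralateral cortex, 3 libraries each) on the vertical axis and its standard error (SE) as a gray line. Filled points passed an adjusted *p* of 0.05 (edgeR), horizontal bars are medians, and most points lie below 0, with medians of -0.44 for nuclear genes of complex I, -0.57 for those of complex IV, and -0.84 for mitochondrial-encoded genes.

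Mitochondrial-encoded transcripts were lower in infarcts by a median of 1.79-fold. Of 11 tested, 7 (63.6%) were called lower and 0 higher by edgeR, against 30.8% and 34.2% of all tested genes, and all 11 log2 fold changes lay below 0, from -1.11 to -0.50. None was higher at an unadjusted *p* under 0.05 or by DESeq2 or limma voom. For the same 7 genes the 3 infarct values all lay below the 3 contralateral values, as they did for 34.7% of all tested genes. Of the nuclear subunits, 8 of 78 had a log2 fold change below the mitochondrial-encoded median of -0.84, and 43 lay at or above *mt-Nd6*, the mitochondrial-encoded gene that changed least. All 13 lie on mitochondrial DNA and share its transcripts, so they are not independent observations. The 2 groups were set side by side as a description, without a test of their difference.

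The balance between the genomes was therefore also read within each library, where scaling between libraries plays no part. Mitochondrial-encoded subunits took 2.99%, 2.26% and 2.92% of gene counts in infarcts 1 to 3 against 4.51%, 3.74% and 4.97% in contralateral cortices 1 to 3. Nuclear subunits took 0.355%, 0.298% and 0.349% in infarcts against 0.373%, 0.368% and 0.413% in contralateral cortices. Both shares were lower in all 3 infarcts than in any contralateral cortex, and infarct 2 had the lowest of each. The ratio of mitochondrial-encoded to nuclear counts was 8.44, 7.58 and 8.37 in infarcts against 12.1, 10.2 and 12.0 in contralateral cortices. The regions did not overlap in this ratio, and on the log2 scale it was 3.02 ± 0.0866 (SD, n = 3) in infarcts and 3.51 ± 0.144 (SD, n = 3) in contralateral cortices, a difference of -0.49. The mitochondrial-encoded sums hold few reads of 5 sparsely counted genes described below, so the ratio largely leaves these genes out. Without the mitochondrial-encoded genes that have a nuclear copy the difference was -0.50. The 4 highest nuclear genes (*Atp5b*, *Sdha*, *Atp5a1*, and *Atp5c1*) held 38.7% of the nuclear counts, and *mt-Co1* held 28.4% of the mitochondrial-encoded counts.

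**Figure D2:**
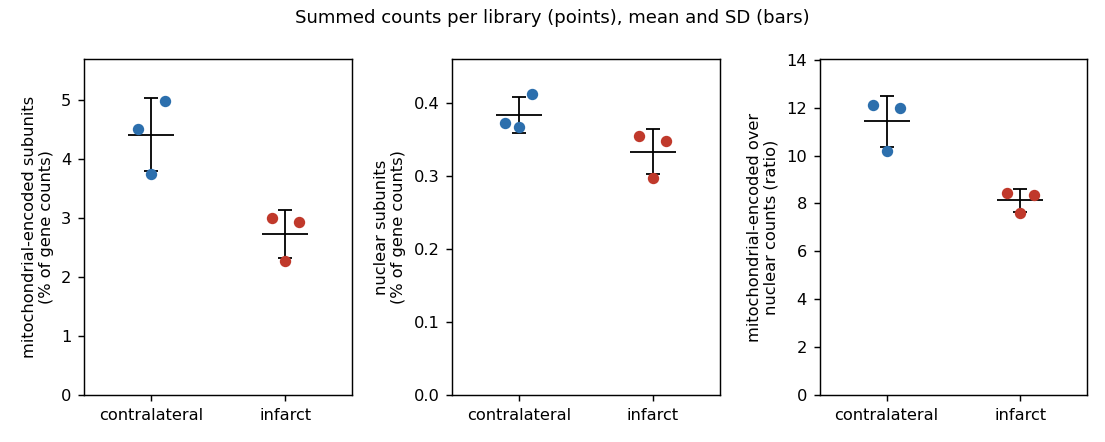
Points are the 6 libraries, with the mitochondrial-encoded share of gene counts on the left, the nuclear share in the middle, and the ratio of the counts on the right. Horizontal bars are means and whiskers are SD (n = 3 per region), and in each panel all 3 infarcts lie below all 3 contralateral cortices.

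The mitochondrial genes fell into 2 kinds by their counts. In all 6 libraries 8 genes had at least 100 CPM, and 5 (*mt-Co2*, *mt-Co3*, *mt-Atp6*, *mt-Atp8*, and *mt-Nd4l*) had under 30 CPM. Of these 5 low genes, 4 have nearly their whole sequence in another annotated transcript. For *mt-Co2*, which encodes the subunit of complex IV that receives electrons from cytochrome c, the annotated transcript and that of the nuclear copy *Gm28661* matched at 100% of 681 bases. The first bases of that match, 1 to 120 of the transcript, are shown because a read that lies within the match fits both places equally. They come from GENCODE release M21 on GRCm38, with *mt-Co2* on the plus strand at chrM:7013-7696.

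mt-Co2 and Gm28661: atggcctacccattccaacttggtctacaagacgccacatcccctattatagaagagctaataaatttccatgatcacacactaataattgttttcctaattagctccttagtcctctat

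The windows of 75 bases in *mt-Co2* also occurred in another annotated transcript for 99.5% of positions, and the share was 99.9% for *mt-Co3* (copy *Gm28437*), 99.5% for *mt-Atp6* (copy *Gm10925*), and 98.7% for *mt-Nd4l* (copy *Gm10222*). The counting step set aside reads that align to several places, which were 14.05% to 18.20% of the reads tallied per library. *mt-Co2* had 55, 86 and 229 counts in infarcts against 408, 89 and 171 in contralateral cortices. *mt-Co3*, another core subunit of complex IV, had 28, 22 and 70 counts in infarcts against 169, 38 and 75 in contralateral cortices. *mt-Atp6*, the proton channel subunit of complex V, had 36, 70 and 112 counts in infarcts against 264, 52 and 118 in contralateral cortices. In these 3 genes the regions overlapped and infarct 3 and contralateral cortex 1 were the highest of their regions, and the log2 fold changes of -0.70, -1.07 and -0.84 had SEs of 0.60, 0.53 and 0.54. The adjusted *p* values (edgeR's quasi-likelihood test) were 0.339, 0.109 and 0.207. The nuclear copies had few counts of their own, such as 27, 25 and 36 in infarcts against 91, 77 and 63 in contralateral cortices for *Gm28661*.

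*mt-Nd4l*, a small core subunit of complex I, had 3, 2 and 6 counts in infarcts against 22, 4 and 6 in contralateral cortices. *mt-Atp8*, an accessory subunit of complex V whose gene overlaps *mt-Atp6*, had 0, 0 and 5 counts in infarcts against 4, 1 and 2 in contralateral cortices. No window of *mt-Atp8* occurred in another annotated transcript, and a copy outside annotated transcripts was not looked for. Neither gene passed the filter on low counts, and their counts overlapped between regions. A share of common windows did not always go with few counts: *mt-Nd3*, with 97.8% (copy *Gm28438*), had 16258 to 19294 counts in infarcts against 27132 to 43481 in contralateral cortices. *mt-Nd4* (61.5%) and *mt-Co1* (39.8%) also have part of their sequence in copies, and reads from those parts can be set aside in either region.

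**Figure D3:**
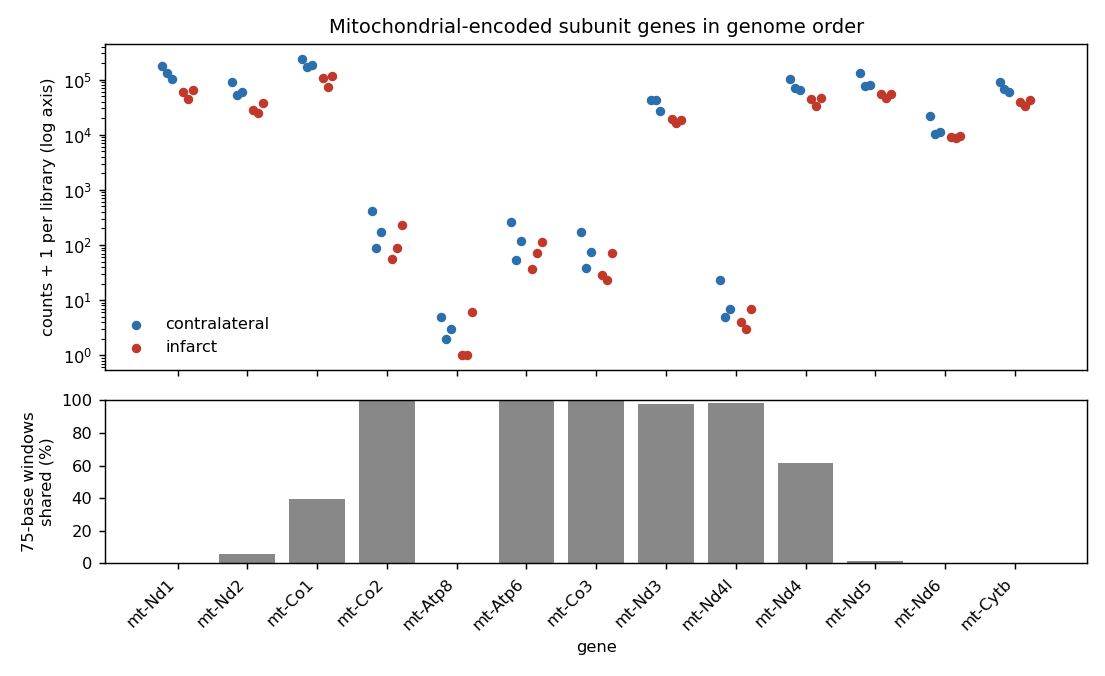
The upper panel gives counts plus 1 on a log axis for the 13 mitochondrial-encoded subunit genes in genome order, with 3 points per region. The lower panel gives the percent of 75-base windows that also occur in another annotated transcript, which is 99.5% or more for *mt-Co2*, *mt-Atp6*, and *mt-Co3*, all with low counts, and 97.8% for *mt-Nd3*, with high counts.

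Among the 8 well counted mitochondrial genes, 2 core genes of complex I had the largest changes. *mt-Nd1* (ENSMUSG00000064341, chrM:2751-3707), where the membrane arm meets the quinone site, had 4753, 3295 and 4440.1 CPM in infarcts and 9189, 8498 and 9331 CPM in contralateral cortices. All 3 infarcts lay far below all 3 contralateral cortices, for a log2 fold change of -1.11 (SE 0.20, adjusted *p* = 0.000934, edgeR). *mt-Nd2*, a proton-pumping subunit, had 2213, 1854 and 2549 CPM in infarcts and 4837, 3399.8 and 5494 CPM in contralateral cortices, which gave a log2 fold change of -1.05 (SE 0.23, adjusted *p* = 0.00256, edgeR). These were the 2 mitochondrial genes called past a fold change of 2.

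*mt-Nd3* had 1537, 1194 and 1265 CPM in infarcts and 2267.5, 2831 and 2504 CPM in contralateral cortices, without overlap (log2 fold change -0.93, adjusted *p* = 0.00145, edgeR). *mt-Nd4*, a further pumping subunit, had 3597, 2476 and 3241 CPM in infarcts and 5303.5, 4619 and 6092.5 CPM in contralateral cortices (log2 fold change -0.78, adjusted *p* = 0.00833, edgeR). *mt-Nd5*, the pump at the end of the membrane arm, had 4372, 3447 and 3807 CPM in infarcts and 6887, 4954 and 7430.1 CPM in contralateral cortices (log2 fold change -0.73, adjusted *p* = 0.0132, edgeR). None of these 3 genes overlapped between regions, and contralateral cortex 2 was the lowest contralateral value for *mt-Nd4* and *mt-Nd5* but the highest for *mt-Nd3*.

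*mt-Nd6* is the only subunit gene on the other strand of mitochondrial DNA. It had 711, 651 and 643 CPM in infarcts and 1153.5, 659 and 1021 CPM in contralateral cortices. Infarct 1 lay above contralateral cortex 2, and the log2 fold change of -0.50 (SE 0.21) did not pass the test (adjusted *p* = 0.0651, edgeR). The strand setting of the counting is not given in the sources used here.

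*mt-Cytb*, the only mitochondrial-encoded subunit of complex III, had 3081, 2464 and 2969 CPM in infarcts and 4827, 4388 and 5502.5 CPM in contralateral cortices, without overlap (log2 fold change -0.79, SE 0.19, adjusted *p* = 0.00436, edgeR). *mt-Co1*, the catalytic subunit of complex IV, had the most counts of all 110 genes. It had 8691, 5373 and 7823 CPM in infarcts and 12497, 11105.5 and 17362 CPM in contralateral cortices. The regions did not overlap, infarct 2 was the lowest and contralateral cortex 3 the highest, and the log2 fold change was -0.90 (SE 0.26, adjusted *p* = 0.0113, edgeR). The call of *mt-Co1* was lost without infarct 2 or without contralateral cortex 3, and that of *mt-Nd5* was lost without either of these or without contralateral cortex 1. The other 5 called genes passed in every alternative tried.

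Complex I oxidizes NADH and is the largest complex. Its conserved core is shared between the genomes, with 7 subunits from nuclear genes. Of its 37 tested nuclear genes, 12 (32.4%) were called lower and 0 higher by edgeR, against 30.8% and 34.2% of all tested genes, with a median log2 fold change of -0.44. The count of 12 was 4 without infarct 2, 6 without contralateral cortex 1, and 5 without contralateral cortex 3. Among the 7 core genes, 2 were called lower, with a median of -0.38, and among the 30 accessory genes 10 were, with a median of -0.48. No nuclear gene of complex I or III was higher at an unadjusted *p* under 0.05 (edgeR) or by DESeq2 or limma voom. The called core genes were *Ndufs1*, an iron-sulfur subunit of the NADH arm, and *Ndufs3*, whose call was lost without infarct 2, contralateral cortex 1, or contralateral cortex 3. *Ndufs1* had 72.3, 66.9 and 78.7 CPM in infarcts and 101, 119 and 121 CPM in contralateral cortices, without overlap. The log2 fold change was -0.65 (SE 0.14, adjusted *p* = 0.00255, edgeR).

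*Ndufs5*, an accessory subunit of the intermembrane side, had the lowest log2 fold change of all tested members, at -1.60, but was sparsely counted. It had 12, 6 and 4 counts in infarcts against 38, 27 and 13 in contralateral cortices. The regions did not overlap in CPM (SE 0.51, adjusted *p* = 0.0191, edgeR), but the call was lost without infarct 2, infarct 3, contralateral cortex 1, or contralateral cortex 2. *Ndufa12* (ENSMUSG00000020022, chr10:94198720-94221443), an accessory subunit added late in assembly, had 14.2, 10.5 and 13.5 CPM in infarcts and 24.2, 29.3 and 28.2 CPM in contralateral cortices. Its values were well apart (log2 fold change -1.10, SE 0.18, adjusted *p* = 0.000483, edgeR), and 22.0% of its windows were shared with other transcripts.

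*Ndufb2*, of the membrane arm, had 12.3, 13.7 and 16.2 CPM in infarcts and 27.8, 23.4 and 25.8 CPM in contralateral cortices (log2 fold change -0.87, adjusted *p* = 0.00157, edgeR). *Ndufs4*, an accessory subunit whose loss causes a Leigh-like encephalopathy in mice, had the smallest called change of the complex. It had 8.20, 6.76 and 7.64 CPM in infarcts and 10.3, 10.3 and 12.1 CPM in contralateral cortices, without overlap (log2 fold change -0.53, SE 0.19, adjusted *p* = 0.0339, edgeR). Its call was lost under 9 of 15 alternatives, among them those without infarct 2, infarct 3, or any single contralateral cortex.

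Complex II is succinate dehydrogenase, which also belongs to the tricarboxylic acid cycle and has no mitochondrial-encoded subunit. None of its 4 genes was called by edgeR, DESeq2, or limma voom, where edgeR called 65.0% of all tested genes. Of the 4, 1, *Sdhd*, had an unadjusted *p* under 0.05 (edgeR). *Sdha*, the flavoprotein, had 423, 351 and 380 CPM in infarcts and 438, 574 and 447 CPM in contralateral cortices, just without overlap (log2 fold change -0.34, adjusted *p* = 0.102, edgeR). *Sdhb*, the iron-sulfur subunit, overlapped, at 56.1, 39.7 and 53.1 CPM against 49.7, 45.3 and 61.5 CPM (log2 fold change -0.07). The membrane anchors lay on the other side of 0. *Sdhd* had 82.6, 66.9 and 63.3 CPM in infarcts and 54.4, 55.8 and 55.2 CPM in contralateral cortices, which did not overlap (log2 fold change 0.36, adjusted *p* = 0.0537, edgeR), and it was called higher in 3 of 15 alternatives, 1 of which left out infarct 3. *Sdhc* had a log2 fold change of 0.32 with overlapping values (adjusted *p* = 0.21, edgeR).

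Complex III passes electrons from ubiquinol to cytochrome c. Of its 8 nuclear genes 3 (37.5%) were called lower and 0 higher by edgeR, near the 30.8% of all tested genes called lower, with a median log2 fold change of -0.46. Without infarct 2 or contralateral cortex 3, 1 was lower. *Uqcrfs1*, the Rieske iron-sulfur protein, had 41.4, 44.5 and 48.5 CPM in infarcts and 71.4, 59.6 and 84.1 CPM in contralateral cortices, without overlap (log2 fold change -0.68, SE 0.16, adjusted *p* = 0.00476, edgeR). *Uqcrc1*, a core protein of the matrix side, had 49.1, 32.8 and 44.6 CPM in infarcts and 52.9, 64.5 and 71.5 CPM in contralateral cortices. It was also free of overlap (log2 fold change -0.58, SE 0.19, adjusted *p* = 0.0228, edgeR), but its call was lost without infarct 2, contralateral cortex 2, or contralateral cortex 3.

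Complex IV, cytochrome c oxidase, reduces oxygen. Of its 13 tested nuclear genes, 8 (61.5%) were called lower by edgeR, against 30.8% of all tested genes, with a median log2 fold change of -0.57. The count was 4 (30.8%) without infarct 2, contralateral cortex 1, or contralateral cortex 3. The share of all genes called lower in those fits is not given here. *Cox6a1*, the widely expressed form of subunit 6a, had 39.3, 40.1 and 61.3 CPM in infarcts and 98.0, 66.6 and 103 CPM in contralateral cortices. Infarct 3 came close to contralateral cortex 2 but did not reach it (log2 fold change -0.93, SE 0.23, adjusted *p* = 0.00526, edgeR). *Cox7a2*, the widely expressed form of subunit 7a, had 7.89, 7.56 and 10.2 CPM in infarcts and 15.4, 14.8 and 20.0 CPM in contralateral cortices (log2 fold change -0.96, adjusted *p* = 0.00256, edgeR).

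*Cox7c* had 35.8, 31.6 and 38.3 CPM in infarcts and 55.4, 56.8 and 55.0 CPM in contralateral cortices (log2 fold change -0.66, adjusted *p* = 0.0026, edgeR). The regions did not overlap in either *Cox7a2* or *Cox7c*. *Cox7b* had the smallest called change of the complex, with 9.32, 9.99 and 9.96 CPM in infarcts and 15.2, 11.6 and 13.7 CPM in contralateral cortices (log2 fold change -0.47, adjusted *p* = 0.0477, edgeR), and the call was lost under 11 of 15 alternatives, among them those without any single library other than contralateral cortex 2. *Cox4i1*, the subunit through which ATP regulates the enzyme, just missed the threshold, with a log2 fold change of -0.57 and an adjusted *p* of 0.053 (edgeR), and was called lower in 7 of 15 alternatives. *Cox8a*, the general form of subunit 8, had 16.2, 11.4 and 17.9 CPM in infarcts and 25.3, 18.3 and 26.0 CPM in contralateral cortices, just without overlap (log2 fold change -0.61, adjusted *p* = 0.0337, edgeR). Its call was lost without infarct 2, contralateral cortex 1, or contralateral cortex 3. *Cox7a2l* had a log2 fold change of 0.19 with overlapping values.

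Complex V makes ATP. Of its 16 nuclear genes 2 (12.5%) were called lower and 1 higher by edgeR, where 30.8% and 34.2% of all tested genes were, and the median log2 fold change was -0.29. The count called lower was 5 without contralateral cortex 2 and 4 without infarct 1 or infarct 3, and 0 were higher without contralateral cortex 2. *Atp5b*, the catalytic beta subunit, had 409, 287 and 360 CPM in infarcts and 505, 520 and 723 CPM in contralateral cortices, without overlap (log2 fold change -0.73, SE 0.20, adjusted *p* = 0.00975, edgeR). *Atp5a1*, its alpha partner, had a log2 fold change of -0.49 and did not pass (adjusted *p* = 0.0685, edgeR). The other 2 called genes of the complex encode the same protein.

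Subunit c forms the membrane ring that turns as protons cross, and 3 nuclear genes encode it. Their products differ only in the import sequence that is removed in the mitochondrion. *Atp5g1* (ENSMUSG00000006057, chr11:96068852-96075670) was lower in infarcts, *Atp5g2* (ENSMUSG00000062683, chr15:102662864-102672352) was higher, and *Atp5g3* (ENSMUSG00000018770, chr2:73908447-73911326) was the most abundant of the 3. Their promoters are shown because the genes supply 1 protein and moved apart. Each runs from 250 bases before to 50 bases after the start in RefSeq (GRCm38.p6), all on the minus strand, at chr11:96075582-96075881, chr15:102670998-102671297, and chr2:73911277-73911576. The stretch of *Atp5g2* lies wholly within the gene span given above, whereas those of *Atp5g1* and *Atp5g3* run past the end of theirs. No other start of *Atp5g2* was examined.

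Atp5g1: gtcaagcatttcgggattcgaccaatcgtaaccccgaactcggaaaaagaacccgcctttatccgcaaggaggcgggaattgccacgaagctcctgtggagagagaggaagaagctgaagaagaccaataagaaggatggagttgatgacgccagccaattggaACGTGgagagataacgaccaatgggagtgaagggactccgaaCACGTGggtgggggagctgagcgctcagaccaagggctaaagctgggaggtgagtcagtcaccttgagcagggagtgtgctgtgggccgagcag
Atp5g2: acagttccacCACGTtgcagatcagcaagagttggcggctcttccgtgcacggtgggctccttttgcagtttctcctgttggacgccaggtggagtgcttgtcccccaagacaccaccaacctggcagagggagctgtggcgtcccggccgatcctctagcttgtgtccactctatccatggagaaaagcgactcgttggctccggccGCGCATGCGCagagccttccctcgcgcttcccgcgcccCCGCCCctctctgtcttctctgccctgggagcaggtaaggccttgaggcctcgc
Atp5g3: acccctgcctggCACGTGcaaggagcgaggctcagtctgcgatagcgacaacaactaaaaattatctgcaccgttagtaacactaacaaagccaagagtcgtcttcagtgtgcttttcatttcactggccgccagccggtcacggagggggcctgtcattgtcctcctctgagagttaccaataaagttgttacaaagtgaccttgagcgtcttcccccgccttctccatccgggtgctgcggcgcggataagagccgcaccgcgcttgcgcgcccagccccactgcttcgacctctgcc

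Capitals mark letters found on either strand for 5 motifs. These were GCGCATGCG (most of the NRF1 palindrome), CCGGAAG (ETS factors), AAGATGGCG (YY1), ACGTG (the core of the hypoxia response element, which is also part of the E-box CACGTG), and GGGCGG (Sp1). The letters ACGTG or its complement stood in all 3 promoters, and CACGTG, which reads the same on both strands, holds 2 such overlapping matches. Only *Atp5g2* held the NRF1 letters and the Sp1 motif among the 3. Over nuclear subunits with a promoter in the RefSeq table, 67 of 84, the NRF1 letters stood in 11.9%, against 2.0% of all 27025 genes. The corresponding shares were 23.9% and 9.9% for ETS, 10.4% and 1.6% for YY1, 23.9% and 21.8% for ACGTG, and 40.3% and 38.2% for Sp1. These matches describe the letters only.

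*Atp5g1* had 7.17, 7.78 and 8.94 CPM in infarcts and 19.3, 17.4 and 20.5 CPM in contralateral cortices, with all infarcts under the lowest contralateral value. The log2 fold change was -1.26 (SE 0.18, adjusted *p* = 0.000194, edgeR) and the call held in every alternative tried. *Atp5g2* had 15.6, 13.4 and 16.2 CPM in infarcts and 10.3, 7.75 and 10.6 CPM in contralateral cortices, again without overlap but in the other direction. The log2 fold change was 0.66 (SE 0.20, adjusted *p* = 0.0143, edgeR), and the call was lost without contralateral cortex 2, its lowest value. For *Atp5g2* 35.8% of windows were shared with other transcripts. *Atp5g3* had 144, 109 and 103 CPM in infarcts and 127, 222 and 160 CPM in contralateral cortices, which overlapped (log2 fold change -0.52, adjusted *p* = 0.0641, edgeR).

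Within each library, *Atp5g1* made up 4.30%, 6.00% and 7.00% of the counts of the 3 genes in infarcts against 12.4%, 7.05% and 10.7% in contralateral cortices. *Atp5g2* made up 9.36%, 10.3% and 12.7% in infarcts against 6.58%, 3.14% and 5.56% in contralateral cortices. In every infarct *Atp5g2* had more counts than *Atp5g1*, and in every contralateral cortex fewer, but counts take no account of gene length. Per kilobase of exon *Atp5g2* was the higher of the pair in both regions. It had 8.99 CPM per kilobase against 1.62 for *Atp5g1* in infarcts, and 5.70 against 3.88 in contralateral cortices. *Atp5g3* remained the main source, at 80.3% to 86.3% in infarcts against 81.1% to 89.8% in contralateral cortices.

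**Figure D4:**
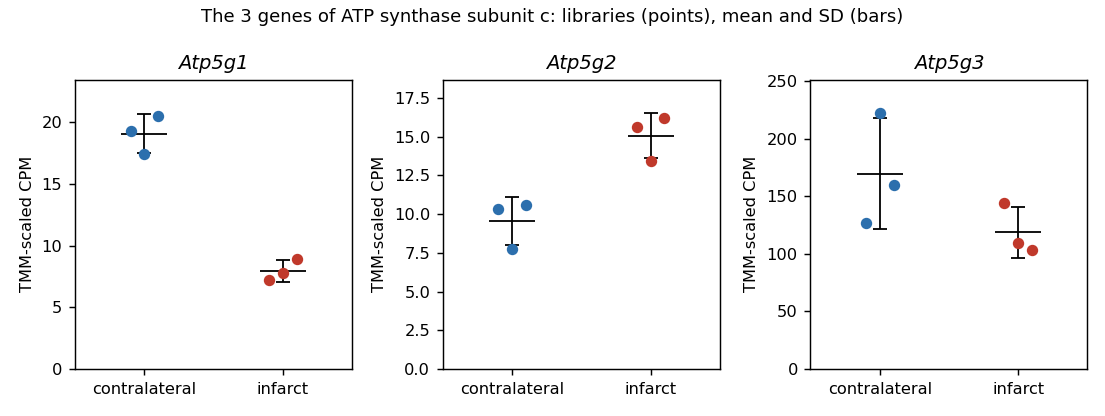
TMM-scaled CPM of the 3 genes that encode subunit c of ATP synthase, with 1 point per library and the mean and SD of 3 libraries per region as bars. The infarcts lie below the contralateral cortices for *Atp5g1*, above them for *Atp5g2*, and overlap them for *Atp5g3*.

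Isoforms were compared as log2 ratios of counts within a library, with 0.5 added to each count. Of 10 pairs of a tissue or hypoxia isoform and its general partner, 7 had at least 10 counts for both genes. An exact two-sided permutation test of 3 against 3 libraries cannot go below *p* = 0.1, so none of these differences could pass, and *p* values were adjusted over the 7 pairs. *Cox4i2*, the form of subunit 4 induced by low oxygen, had 18, 16 and 22 counts in infarcts against 16, 13 and 20 in contralateral cortices. Its log2 ratio to *Cox4i1* was -4.55, -4.26 and -4.63 in infarcts against -5.83, -5.35 and -4.92 in contralateral cortices. The infarct ratios all lay above the contralateral ratios, by 0.89 on average (exact permutation *p* = 0.1, adjusted *p* = 0.175). *Cox4i2* itself had a log2 fold change of 0.27 with an adjusted *p* of 0.612 (edgeR).

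*Cox6a2*, the heart and muscle form of subunit 6a, which is also found in parvalbumin interneurons, had 12, 14 and 8 counts in infarcts against 32, 25 and 43 in contralateral cortices. The log2 fold change was -1.49 (SE 0.49, adjusted *p* = 0.0226, edgeR) without overlap, but the call was lost without infarct 3 or contralateral cortex 3. *Cox6a1* was lower as well, and the log2 ratio of the pair, at -5.31, -5.24 and -6.72 in infarcts against -5.85, -5.33 and -4.69 in contralateral cortices, overlapped. The difference of -0.47 (exact permutation *p* = 0.6, adjusted *p* = 0.6) was 0.02 without infarct 3. The 6 parvalbumin interneuron markers had summed levels of 60.9 to 114 CPM in infarcts and 675 to 760 CPM in contralateral cortices. The 11 skeletal muscle markers had summed levels of 2.87 to 4.19 CPM in infarcts and 11.7 to 15.1 CPM in contralateral cortices. Most of the latter was *Acta1*, skeletal muscle actin, with 0.239, 0.734 and 0.614 CPM in infarcts and 9.05 to 11.2 CPM in contralateral cortices (log2 fold change -4.25, adjusted *p* = 5.05e-06, edgeR). No other marker of the list exceeded 2.15 CPM (*Actn3*) in any library. *Ckm*, muscle creatine kinase, was at 0 in every library except contralateral cortex 3 (0.185 CPM). *Mylpf*, *Tnni2*, and *Tnnt3* were higher in infarcts, with means of 0.49, 0.639 and 0.528 CPM against 0.0217, 0.0217 and 0.0656 CPM. *Actn3* had a log2 fold change of 0.41 and did not pass the test. Means of *Myh1*, *Myh2*, *Myh4*, *Myl1*, and *Mb* were lower in infarcts. The part of either cell type in the level of *Cox6a2* was not tested.

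*Cox6b2*, the testis form of subunit 6b, had 6, 5 and 7 counts in infarcts against 0, 1 and 0 in contralateral cortices. Per effective library size the summed counts, 18 against 1, differed 20.0-fold, with an exact 95% interval of 3.16 to 833 that covers counting error only. *Cox7a1*, the heart and muscle form of subunit 7a, had 5, 5 and 11 counts in infarcts against 2, 3 and 2 in contralateral cortices, a ratio of 3.33 with an interval of 1.36 to 9.28. DESeq2, which did not drop *Cox6b2*, called it higher (adjusted *p* = 0.0235). Neither gene overlapped between regions, in contrast to the overlapping or lower general partners *Cox6b1* and *Cox7a2*. The log2 ratios to these partners were higher in infarcts by 3.68 and 2.41 (exact permutation *p* = 0.1, adjusted *p* = 0.175 for each pair). All 3 infarct ratios lay above all 3 contralateral ratios in both pairs. Even in infarcts *Cox6b2* made up 3.60% and *Cox7a1* 5.42% of the counts of their pairs.

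*Ndufa4l2*, a hypoxia-induced relative of *Ndufa4*, had 5, 13 and 8 counts in infarcts against 13, 0 and 9 in contralateral cortices. These counts overlapped, and its ratio between regions was 1.31 with an interval of 0.715 to 2.43. *Ndufa4* had 46.2, 35.3 and 45.5 CPM in infarcts and 84.8, 74.0 and 69.2 CPM in contralateral cortices, without overlap (log2 fold change -0.85, SE 0.16, adjusted *p* = 0.00119, edgeR). The log2 ratio of the pair differed by 2.06 (exact permutation *p* = 0.2, adjusted *p* = 0.233) and by 0.55 without contralateral cortex 2, whose count of *Ndufa4l2* was 0. For subunit c, the ratio of *Atp5g2* to *Atp5g3* was higher in infarcts by 1.16 without overlap (exact permutation *p* = 0.1, adjusted *p* = 0.175), and that of *Atp5g1* to *Atp5g3* differed by -0.76 with overlap (exact permutation *p* = 0.2, adjusted *p* = 0.233). *Cox7b2* had 3 counts over all libraries, and *Cox8b* and *Cox8c* had 0.

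**Figure D5:**
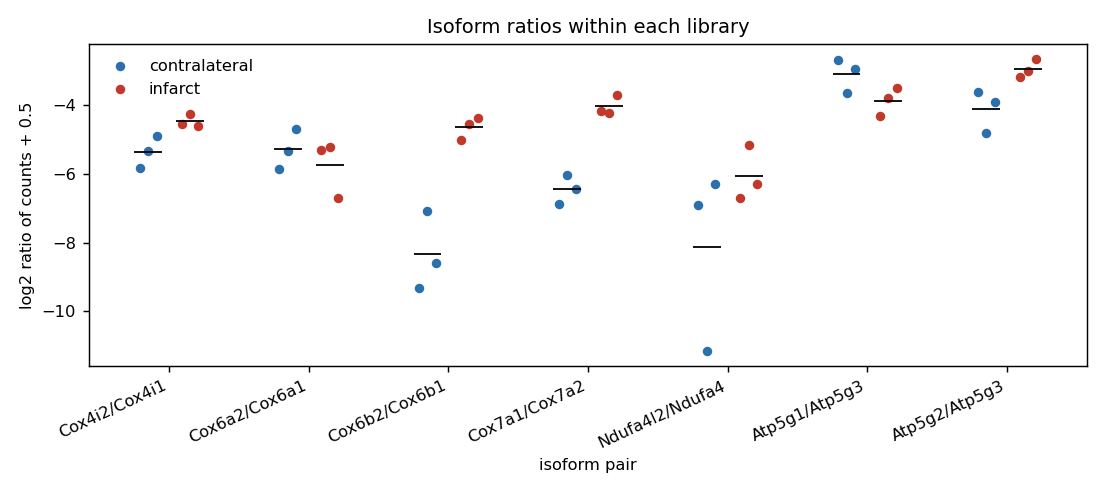
Log2 ratios of counts (with 0.5 added) for 7 isoform pairs, with 1 point per library and a bar at the mean of each region (n = 3). The infarcts lie above the contralateral cortices without overlap in 4 pairs, *Cox4i2/Cox4i1*, *Cox6b2/Cox6b1*, *Cox7a1/Cox7a2*, and *Atp5g2/Atp5g3*.

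Assembly factors build the complexes without staying in them. Of the 12 taken by the symbols, 4 (33.3%) were called lower and 1 higher by edgeR, near the 30.8% of all tested genes called lower, with a median log2 fold change of -0.56. The same 4 of 12 (33.3%) were called lower past a fold change of 2, against 20.9% of all tested genes. *Ndufaf4*, an early factor of complex I, had 10.1, 10.7 and 11.7 CPM in infarcts and 26.6, 23.9 and 26.0 CPM in contralateral cortices, far apart (log2 fold change -1.23, SE 0.16, adjusted *p* = 0.000108, edgeR). *Ndufaf1*, which helps to build the membrane arm, had 12.4, 11.7 and 13.4 CPM in infarcts and 24.9, 24.0 and 27.7 CPM in contralateral cortices (log2 fold change -1.03, adjusted *p* = 0.000345, edgeR). *Ndufaf5*, a modifying enzyme of complex I, had 7.89, 7.27 and 9.08 CPM in infarcts and 16.7, 14.2 and 22.0 CPM in contralateral cortices (log2 fold change -1.12, adjusted *p* = 0.00122, edgeR). None of these 3 overlapped between regions.

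For complex II, whose subunits were not called, 2 assembly factors were called in opposite directions. *Sdhaf3*, which helps to insert iron-sulfur clusters into Sdhb, had 11.9, 15.9 and 13.5 CPM in infarcts and 28.3, 34.0 and 25.5 CPM in contralateral cortices (log2 fold change -1.08, adjusted *p* = 0.000619, edgeR). *Sdhaf2*, which attaches the flavin to Sdha, had 39.7, 33.9 and 32.1 CPM in infarcts and 21.9, 29.2 and 25.2 CPM in contralateral cortices (log2 fold change 0.47, adjusted *p* = 0.0348, edgeR). Neither overlapped, and the call of *Sdhaf2* was lost under 6 of 15 alternatives, among them those without infarct 1, infarct 2, contralateral cortex 1, or contralateral cortex 3. *Atp5s* had a log2 fold change of -0.96 (adjusted *p* = 0.00119, edgeR).

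Levels between genes are compared per kilobase of exon in the values that follow. Shares of counts and ranks by counts elsewhere in the text take no account of gene length. The median nuclear subunit had 15.6 CPM per kilobase in contralateral cortices and 10.1 in infarcts. The highest nuclear genes in contralateral cortices included *Atp5b* at 138, *Cox6a1* at 127, and *Sdha* at 118 CPM per kilobase, and in infarcts these had 83.1, 66.8 and 93.2 CPM per kilobase. *mt-Nd1* led the mitochondrial genes in contralateral cortices, at 9411 CPM per kilobase, followed by *mt-Co1* at 8838. In infarcts *mt-Co1* had 4722 and *mt-Nd1* had 4349.9 CPM per kilobase. *mt-Nd6*, from the other strand, was lowest of the 8 well counted genes in both regions, at 1820 and 1288 CPM per kilobase.

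The genes around the chain were given by lists. Cytochrome c and cytochrome c1, its partner in complex III, were both lower, *Cycs* with a log2 fold change of -1.08 (adjusted *p* = 0.000766, edgeR) and *Cyc1* with -0.76 (adjusted *p* = 0.0349, edgeR). The call of *Cyc1* was lost without any single library other than infarct 3 or contralateral cortex 2. Of 34 other tested assembly factors 0 were called higher by edgeR, against 34.2% of all tested genes. Also, 0 were higher at an unadjusted *p* under 0.05 or by DESeq2 or limma voom. Called lower by edgeR were 8 (23.5%, against 30.8% of all tested genes), with a median of -0.28 over the 34. These included *Ttc19* (-1.87) and *Lyrm7* (-1.76), both of complex III, and *Atpaf1* (-1.68), which builds the head of complex V. In the synthesis of coenzyme Q, the carrier between complexes I or II and III, 10 of 13 genes were lower by edgeR, 8 by DESeq2, and 9 by limma voom, with a median of -0.65, including *Pdss1* (-1.51). None was higher by any of the 3 tools or at an unadjusted *p* under 0.05. The edgeR count of lower genes was 7 without infarct 1, infarct 2, or contralateral cortex 3, and 8 without contralateral cortex 1. Of all tested genes, edgeR called 30.8% lower and 34.2% higher with all 6 libraries.

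In the tricarboxylic acid cycle 7 of 13 genes were lower and 1 higher by edgeR (30.8% and 34.2% of all tested genes), with a median of -0.42. The count called lower was 5 without contralateral cortex 3. *Idh3a*, of the NAD-dependent isocitrate dehydrogenase, had a log2 fold change of -1.66. The 2 partners of succinyl-CoA ligase moved apart, with *Sucla2*, of the ATP-forming enzyme, at -1.05 and *Suclg2*, of the GTP-forming enzyme, at 1.26 (adjusted *p* = 0.000142 and 0.000287, edgeR). Of 20 genes of mitochondrial mass and transport 7 were lower, close to the share of all genes, and 1 higher, with a median of -0.19. Those lower included *Tomm20* (-1.88) of the import pore, *Opa1* (-1.38) of inner membrane fusion, and *Vdac1* (-1.24) of the outer membrane. The aspartate-glutamate carriers moved apart, with *Slc25a12* at -1.33 and *Slc25a13* at 3.04 (adjusted *p* = 3.93e-05 and 2.26e-05, edgeR).

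Of 17 genes that maintain and transcribe mitochondrial DNA, 3 were called, against 65.0% of all tested genes. Of these, 2 were lower (*Polg*, the DNA polymerase, at -0.48 and *Mterf2* at -1.11) and 1 higher (*Polg2* at 1.41), with a median of -0.09 over the list (edgeR). The call of *Polg* was lost without infarct 2 or contralateral cortex 2. Of 10 nuclear regulators of mitochondrial genes 3 were lower and 2 higher, against 30.8% and 34.2% of all tested genes. The coactivators *Ppargc1a* and *Ppargc1b* had log2 fold changes of -1.86 and -1.10, and the nuclear receptor *Esrrg* had -3.31. *Gabpa*, an ETS factor, and *Hif1a* had 1.44 and 0.85.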

How the data were processed

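Per the methods and the submitters' processing notes, the authors prepared stranded mRNA libraries, trimmed the paired reads with Trimmomatic 0.32, aligned them to GRCm38 with STAR 2.5.2b, and deposited raw counts per Ensembl gene made with HTSeq. Its version, annotation, and strand setting are not given in the sources used here. Entries that name no gene (26.64% to 34.26% of each table) stayed out of library sizes and tests. Symbols, exon lengths, and shared 75-base windows came from GENCODE M21 on GRCm38, and promoters from RefSeq (GRCm38.p6). Protein sequences were not used here.

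Counts were fitted over all genes with edgeR 4.0.16 in R 4.3.3 (filterByExpr, TMM, robust glmQLFit and glmQLFTest, region as the only term; biological coefficient of variation 0.22). The procedure was tested on simulated data. Ratios within a library were compared with an exact two-sided permutation test (SciPy 1.17.1). Intervals cover counting error only, and *p* values measure the spread between these libraries, which may be technical. In each complex the text names the called members with the largest and smallest change, all past a fold change of 2, every mitochondrial-encoded member, both genes of each isoform pair, and further members as examples. Members, lists, and tests were chosen with earlier results of these data known. Alternatives were DESeq2 1.42.0, limma 3.58.1 (voom), RLE, upper quartile, and library-total scaling, scaling without mitochondrial genes, other count filters, 1 in place of 0.5 added to counts, a replicate block, each library left out in turn, and, chosen after seeing the data, genes with under 10% shared windows and medians relative to all genes.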

Additional observations from a re-analysis of the deposited data

How the results depend on the processing

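Scaling by library totals gave 12 nuclear subunits lower and 4 higher instead of 25 and 1, with a median log2 fold change of -0.23 instead of -0.43; the cause was not tested, but relative to the median of all genes under the same scaling it was -0.46. A fold change above 2 left 4 nuclear subunits lower and 0 higher, and 2 mitochondrial-encoded subunits lower instead of 7. Nuclear subunits called higher numbered 2 with DESeq2, with no filter on low counts, and with at least 10 counts in every library. With the assembly factors included the genes called higher also numbered 2, but the added gene was *Sdhaf2*, an assembly factor. With each library left out in turn, nuclear subunits called lower ranged from 11 to 27 and those called higher from 0 to 2, their median from -0.49 to -0.32, mitochondrial-encoded subunits called lower from 5 to 10, and their median from -1.04 to -0.70. The log2 ratio of mitochondrial-encoded to nuclear counts differed by -0.57 to -0.44 with each library left out, and by -0.69 as a difference of medians over genes in place of sums. The ratio of *Cox6a2* to *Cox6a1* ranged from -0.75 to 0.02 and turned direction without infarct 3. The ranges of the other isoform pairs were 0.66 to 1.11 for *Cox4i2/Cox4i1*, 3.19 to 4.30 for *Cox6b2/Cox6b1*, 2.20 to 2.62 for *Cox7a1/Cox7a2*, 0.55 to 2.97 for *Ndufa4l2/Ndufa4*, -1.04 to -0.54 for *Atp5g1/Atp5g3*, and 0.80 to 1.41 for *Atp5g2/Atp5g3*.

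Of the called genes, 10 of 26 nuclear subunits, 5 of 7 mitochondrial-encoded subunits, and 4 of 5 assembly factors kept their call in every alternative. Among genes with under 10% shared windows the medians were -0.44 (nuclear) and -0.79 (mitochondrial-encoded). Deviations of same-numbered libraries correlated at -0.19, 0.101 and 0.001. With 3 libraries per region these values cannot settle whether same-numbered libraries came from 1 mouse. The records do not pair them either, so the main fit used no pairing. With the replicate block 26 nuclear subunits were lower and 1 higher, 8 mitochondrial-encoded subunits were lower, and the medians were -0.42 and -0.79. The call of *Cox6a2* was lost under the block (log2 fold change -1.41, adjusted *p* = 0.0585, edgeR). The 8 members under the filter on low counts were not tested in the main edgeR fit. DESeq2, run without that filter, called *Cox6b2* among them higher (adjusted *p* = 0.0235, DESeq2).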
